A study of Rattus norvegicus with 12 samples.

Results

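B cells of the healthy rat liver were picked from 6 single-cell RNA libraries by the transcripts of Cd79b, Ms4a1, Fcmr and Ighm. A cell was a member when it held at least 3 unique molecular identifiers (UMIs, each of which stands for 1 captured RNA molecule) of these 4 genes together, with at least 2 of the genes counted, and no UMI of Cd3e, Cd3d, Cd3g or Siglech. Of the 25659 kept cells, 176 (0.686%) were members. The levels of the 4 genes, and of any gene that travels with them, were therefore fixed in part by the choice of cells, and are given below as a description with no test.

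The study compared the livers of healthy male Dark Agouti (DA) and Lewis (LEW) rats, given as 8 to 10 weeks old in the series description, although the study's methods state another age. Total liver homogenate (TLH) libraries, version 2 chemistry, came from the collagenase-digested livers of 2 DA and 2 LEW rats. The immune-enriched libraries, version 3 chemistry, came from 1 liver of each strain after further washes and red cell depletion, so that preparation and chemistry cannot be told apart. No rat was treated and none carried an engineered allele. A TLH cell was kept from 2000 UMIs upwards if mitochondrial genes gave no more than 40% of them, and an immune-enriched cell from 1000 UMIs upwards with a limit of 50%. The deposited barcodes of the 6 libraries held 48255870 to 92484173 UMIs each, no kept cell was identical between libraries, and the files used here carried no barcode names.

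B cells are the lymphocytes that make antibody. Each carries an immunoglobulin on its surface, which signals through the paired chains Cd79a and Cd79b when it meets antigen. A B cell that has not yet met antigen displays IgM, recirculates through the lymphoid organs and is kept alive by the cytokine BAFF. On activation it may switch to another heavy chain class, enter a germinal centre, or become a plasma cell, which loses most surface receptor genes and fills with secretory machinery and immunoglobulin transcript. Plasmacytoid dendritic cells (pDCs), marked by Siglech in rodents, make interferon and share several B lineage genes. T cells carry the CD3 chains. In the liver, B cells travel through the sinusoids beside both.

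The counts of the 4 genes follow from the rule and do not check the label. Cd79b, the signalling chain of the receptor, was counted in 160 of the 176 members, Ighm, the IgM heavy chain, in 174, Fcmr, the receptor for IgM, in 128, and Ms4a1, which encodes CD20, in 39. There were 58 members with UMIs of 2 of the genes, 87 with 3 and 31 with all 4. Just inside the limit, 9 members held exactly 3 UMIs. Just outside, 12 kept cells held 2 UMIs of 2 genes and 53 held 3 or more UMIs of 1 gene, which was Ighm in 49. Of the 227 cells that met the condition on the 4 genes, 27 held a CD3 UMI and 44 a Siglech UMI, 20 of them both, and were left out.

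Ms4a1 was counted in 27 of 65 members of the DA immune-enriched library and in 12 of 49 of the LEW one, but in 0 of the 62 TLH members, which allows a share of up to 4.84%. Such limits, and the exact binomial (Clopper-Pearson) 95% intervals given below, cover counting error only. The median member of the immune-enriched libraries held 19 (DA) and 17 (LEW) UMIs of the 4 genes together, whereas the TLH medians lay between 4 and 6. Members of the TLH libraries were thus called on few molecules, although their median total, 2284 to 2580 UMIs, was not far below the 2776 (DA) and 2772 (LEW) of the immune-enriched members.

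**Figure D1:**
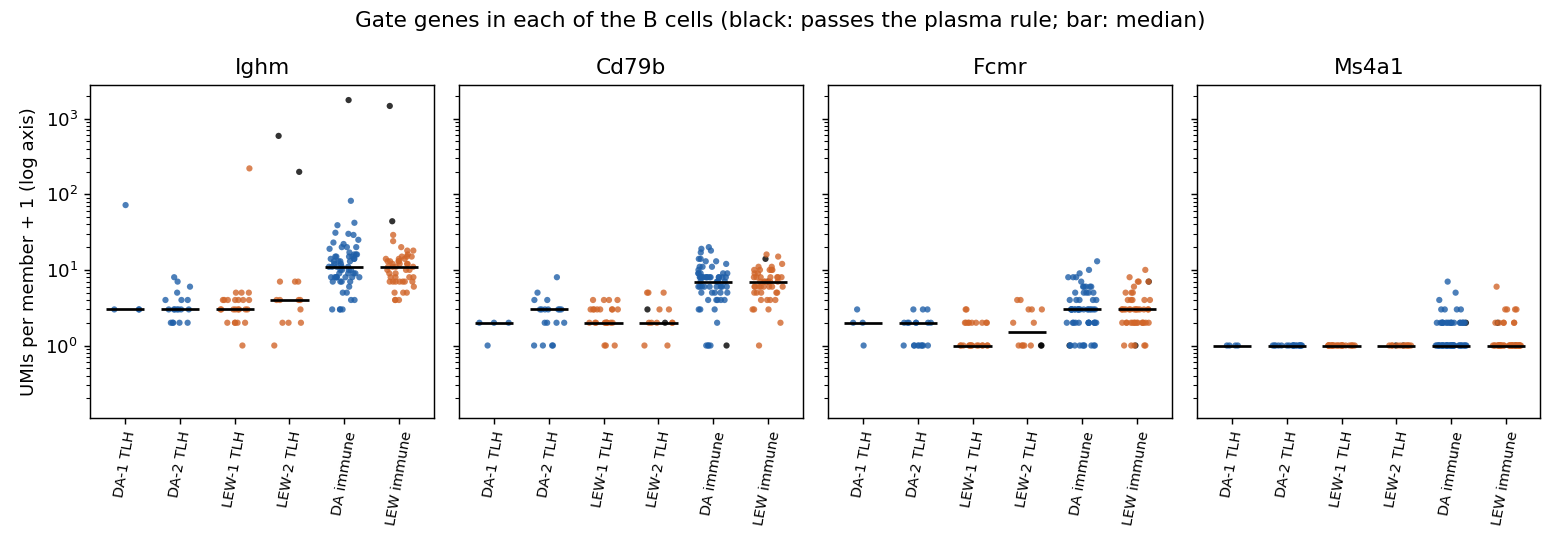
UMIs per member plus 1 (log axis) of Ighm, Cd79b, Fcmr and Ms4a1 in each of the 176 B cells, by library (blue DA, orange LEW, black for members that passed the plasma rule, bar at the median). Ms4a1 sits at 0 in all 62 TLH members, and single members with up to 1762 Ighm UMIs stand far above the medians of 10 in both immune-enriched libraries.

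Genes that the choice of cells did not use were read in the TLH members and set against cells with no Ptprc UMI. Cd74, the invariant chain of MHC class II, was counted in 61 of the 62 TLH members, against 15.1% of the 20828 TLH cells outside the B, T and pDC gates with no Ptprc UMI, which are called Ptprc-zero cells here and are mostly hepatocytes. Ptprc encodes CD45, carried by all leukocytes. Fcrla was counted in 17 of the 62 TLH members and in 0.955% of Ptprc-zero cells, and Mef2c in 12 and in 1.12%. The leukocyte gene Ptprc itself was counted in only 16 of the 62. Cd74, Fcrla and Mef2c had no consistent 2-fold difference between B cells and pDCs of the immune-enriched libraries. They therefore do not tell B cells from pDCs. Of the genes that were higher in B cells than in pDCs there, Ebf1, Cr2, Bank1 and Pax5 were sparse in TLH members. In DA-2, LEW-1 and LEW-2, Ebf1 had 2, 0 and 0 UMIs, Cr2 5, 0 and 2, Bank1 1, 4 and 3, and Pax5 none. AABR07060872.1, a gene without a symbol that was also higher there, was counted in 59 of the 62 and in 3.67% of Ptprc-zero cells. As described below, most pDCs held it too.

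Hepatocyte transcripts were abundant in TLH members, though below their level in Ptprc-zero cells. Summed over 8 hepatocyte markers, the B cell level was 75.4%, 83.3%, 85.0% and 58.9% of that in Ptprc-zero cells of DA-1, DA-2, LEW-1 and LEW-2. It was 17.0% in the LEW and 2.42% in the DA immune-enriched library. Alb, the serum albumin gene, was counted in all 62 TLH members. The TLH members were counted, but levels of other genes are mainly given from the 114 immune-enriched members. The members of the DA immune-enriched library had a median of 18.3% mitochondrial UMIs, those of the LEW one 11.8%, and those of the TLH libraries 3.15% to 5.09%.

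The first question was how many B cells each liver yielded. In the TLH libraries there were 4 B cells among 2351 kept cells of DA-1 (0.170%, interval 0.0464% to 0.435%) and 19 of 10167 in DA-2 (0.187%, 0.113% to 0.292%). There were 25 of 5457 in LEW-1 (0.458%, 0.297% to 0.676%) and 14 of 3844 in LEW-2 (0.364%, 0.199% to 0.610%). At the cell limits used here, both LEW shares therefore lay above both DA shares. In the immune-enriched libraries the order was the opposite, with 65 of 1163 cells in DA (5.59%, 4.34% to 7.07%) and 49 of 2677 in LEW (1.83%, 1.36% to 2.41%).

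Across the 6 libraries the mean log2 share was 0.26 higher in LEW (two-sided exact permutation of the strain within preparation, p = 1.0 over 12 arrangements, of which the smallest possible p is 0.167). The difference turned to -0.18 with the study's own limits on UMIs and mitochondrial share (exact permutation p = 0.833). The LEW-1 share (0.256%) then lay below that of DA-2 (0.267%). Those limits kept 12124 cells of LEW-1 and 7857 of LEW-2, more than the cell numbers given for these libraries in the study, which a minimum of 2000 UMIs matched (5457 and 3844). With 6623, 7112, 5457 and 3844 cells of DA-1, DA-2, LEW-1 and LEW-2, the difference was 0.15 (exact permutation p = 1.0). It rose to 1.20 without either immune-enriched library (exact permutation p = 0.333, the smallest that 6 arrangements can give). With so few libraries, none of these tests could reach 0.05. For a share of kept cells, fewer B cells and more of the other cells cannot be told apart.

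As a fraction of the gated lymphoid cells, B cells lay in a narrower range. Among all cells in the B, T and pDC gates, B cells made up 36.4% in DA-1, 51.4% in DA-2, 45.5% in LEW-1 and 29.2% in LEW-2. The corresponding values were 33.3% in the DA and 33.6% in the LEW immune-enriched library. The TLH fractions rested on 11, 37, 55 and 48 gated cells, and the DA-1 interval was 10.9% to 69.2%. The ratio of B to T cells was 0.8 in DA-1, 2.38 in DA-2, 1.14 in LEW-1 and 0.538 in LEW-2. It was 0.596 in the DA and 0.544 in the LEW immune-enriched library. The T gate asked for at least 3 UMIs of at least 2 CD3 genes with no Siglech UMI, and the pDC gate for at least 2 UMIs of Siglech with no CD3 UMI. Cells with UMIs of both kinds were in none of the 3 gates. They held 260 and 56 cells in all.

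**Figure D2:**
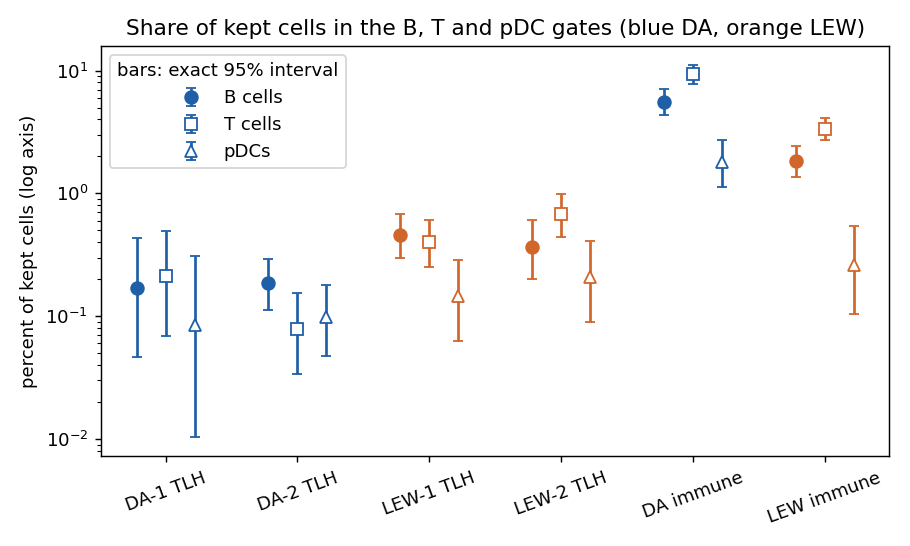
Share of kept cells in the B, T and pDC gates in each library, in percent on a log axis, with exact 95% intervals (blue DA, orange LEW). At the cell limits used here, both LEW B cell shares of the TLH libraries (0.458% and 0.364%) lie above both DA shares. In the immune-enriched libraries DA (5.59%) lies above LEW (1.83%).

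The B cells were next set beside the T cells, pDCs and Ptprc-zero cells of the same immune-enriched libraries. UMIs were summed over the cells of a class and scaled to counts per 1000000 UMIs of the class (CPM), and a gene was called higher or lower when the ratio, with 10 CPM added to both sides, was 2-fold or more in both libraries. The gate is itself this contrast, so nothing in it was tested. The B cells were also the shallowest of the lymphoid classes, with medians of 2776 and 2772 UMIs against 4185 and 4393 for T cells and 7383 and 7447 for pDCs. The pDC class was small, with 21 cells and 143559 UMIs in DA and 7 cells and 47276 UMIs in LEW. For a gene at low CPM in B cells, 0 UMIs in so few pDCs does not establish a 2-fold difference.

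The gate genes came first in this comparison. Cd79b stood at 1993 CPM in DA and 1801 CPM in LEW B cells and had no UMI in the T cells or pDCs of either library. Against a floor of 3 counts in the T cells, it was at least 339-fold higher in B cells in DA and at least 274-fold higher in LEW. Ighm stood at 12201 and 11764 CPM in B cells, and at 98.1 and 11.0 CPM in T cells. It also reached 1198 and 994 CPM in pDCs. Fcmr was likewise shared in part, at 783 and 675 CPM in B cells and 153 and 212 CPM in pDCs.

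The pDCs were thus not free of the gate genes. Without the condition on Siglech, 24 of the 56 pDCs, among them 13 of 21 in DA and 5 of 7 in LEW immune-enriched cells, would have passed as B cells. Of the 260 T cells, 1 met the condition on the 4 genes and was kept out by its CD3 UMIs. Those pDC transcripts did not include Cd79b in the immune-enriched libraries, where 0 of 28 pDCs held one, which allows a share of up to 10.7%. The part of free RNA in the Ighm of pDCs was not tested, but Ptprc-zero cells of the LEW library stood at 1.19 CPM and those of DA at 121 CPM. Of the 805 Ighm UMIs in the DA Ptprc-zero cells, 742 lay in 1 cell that met the plasma rule given below, so most of that level was not free RNA spread over cells.

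The list of receptor complex and signalling genes held 20 genes, of which 19 were in the files' gene list, Cd79a being absent from it. Of these, 17 were counted in at least 10% of the B cells of both immune-enriched libraries. Against T cells, 16 of the 18 that could be compared were higher in B cells and 0 lower. The same held for 290 of all 7376 genes compared (3.93%) in the higher and 231 (3.13%) in the lower direction. The list's median log2 ratio was 2.59, beside -0.02 over all genes. Against pDCs, 7 of 19 were higher and 2 lower, with a median of 1.07 against -0.24 over the 5493 genes compared, of which 329 (5.99%) were higher and 663 (12.1%) lower.

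Cr2, a complement receptor, stood at 159 CPM in DA and 154 CPM in LEW B cells, and had no UMI in T cells or pDCs. Bank1, an adaptor of B cell signalling, stood at 188 and 190 CPM in B cells, at 1.96 and 2.19 CPM in T cells and at 34.8 and 21.2 CPM in pDCs. Fcrl1, a receptor of the Fc receptor-like family, was at 103 and 82.9 CPM and at 0 in both other classes. These 3 genes were called higher in B cells than in both other classes, Fcrl1 on 22 (DA) and 14 (LEW) UMIs in B cells.

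Other signalling genes were as high or higher in pDCs. Blnk, the adaptor downstream of Syk, was at 141 and 94.8 CPM in B cells but at 738 and 677 CPM in pDCs, which makes it 5.25-fold (DA) and 7.14-fold (LEW) higher in pDCs. The phosphatase gene Ptpn6 was also higher in pDCs, at 787 and 402 CPM against 253 and 142 CPM. Fcrla, an intracellular Fc receptor-like protein, was at 553 and 533 CPM in B cells and 892 and 846 CPM in pDCs. The kinase gene Syk, at 127 and 101 CPM in B cells, lay close to its pDC levels of 153 and 169 CPM.

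All 12 lineage transcription factors of the list were measured. Against T cells, 8 were higher in B cells and 0 lower, and against pDCs 6 were higher and 2 lower. Ebf1, which directs early B cell development, stood at 192 CPM in DA and 201 CPM in LEW B cells and had no UMI in T cells, pDCs or Ptprc-zero cells. Pou2af1, the coactivator of octamer-binding factors, stood at 183 and 195 CPM and at 0 in pDCs. Pax5, which holds B cells to their lineage, was counted in only 9 of the 114 members, at 28.1 and 29.6 CPM, and in no T cell, pDC or Ptprc-zero cell of these libraries.

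Irf8 and Bcl11a were the 2 lower factors. Irf8, an interferon regulatory factor needed by dendritic cells, was at 89.1 and 184 CPM in B cells and at 2292 and 2221 CPM in pDCs, a 25.7-fold (DA) and 12.1-fold (LEW) difference. Bcl11a was at 23.4 and 53.3 CPM in B cells against 153 and 127 CPM. Spib, an ETS factor of both lineages, and Mef2c, a factor of B cell survival, had no consistent 2-fold difference from pDCs. Spib stood at 197 and 107 CPM in B cells and 216 and 508 CPM in pDCs, and Mef2c at 366 and 403 CPM and 209 and 275 CPM.

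Siglech was at 0 in B cells by the rule. Of the 12 other pDC markers, 9 could be compared with pDCs and 7 were lower in B cells, with a median log2 ratio of -3.35. Tcf4, the factor that defines pDCs, was at 37.5 and 47.4 CPM in B cells and 397 and 360 CPM in pDCs. Runx2 had no UMI in B cells and 202 and 338 CPM in pDCs. Of the 16 T cell markers, 11 had no UMI in the immune-enriched B cells, all 3 CD3 genes among them by the rule. The same held for 22946 of all 32883 genes, so this count alone says little about T cell markers. Apart from the CD3 genes, 11 could be compared with T cells and all 11 were lower, with a median of -3.71. Lck, a T cell kinase, was at 18.8 and 5.92 CPM against 263 and 303 CPM. Of the 6 NK cell markers, 4 had no UMI, again near the share over all genes.

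Antigen presentation genes were high in both B cells and pDCs. All 8 class II genes that could be compared were higher in B cells than in T cells, and 2 of 8 were higher than in pDCs, with 0 lower. Cd74 stood at 10292 CPM in DA and 10651 CPM in LEW B cells and at 9648 and 7298 CPM in pDCs. RT1-Da, a class II alpha chain gene, stood at 5406 and 6255 CPM in B cells and at 5029 and 3892 CPM in pDCs. It was counted in 62 of 65 DA and 48 of 49 LEW members, with medians of 17 and 19 UMIs per member.

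The 2 genes higher in B cells than in pDCs were RT1-DOa and RT1-DOb, which encode the chains of the DO protein, a modulator of peptide loading on class II. RT1-DOa was at 164 and 261 CPM in B cells and at 0 and 21.2 CPM in pDCs. RT1-DOb was at 178 and 107 CPM in B cells and at 6.97 and 0 CPM. RT1-DMa is listed at 0 in every kept cell and RT1-DMb was counted once in B cells, so nothing can be read for the DM protein that DO acts on.

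All 4 receptors of the BAFF, APRIL and CD40 group were called higher in B cells than in T cells, pDCs and Ptprc-zero cells. For Tnfrsf13b the calls rested on 11 (DA) and 8 (LEW) UMIs in B cells, too few to set against the small pDC class. Tnfrsf13c, the BAFF receptor, was at 291 CPM in DA and 195 CPM in LEW B cells, and was counted in 52 of the 114 members. Cd40, the receptor for T cell help, was at 75.0 and 101 CPM, and Tnfrsf13b, which encodes TACI, at 51.6 and 47.4 CPM. Tnfrsf17, the receptor of plasma cells, had 3 UMIs in DA and 14 in LEW, and each of these sums came from 1 member that passed the plasma rule.

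**Figure D3:**
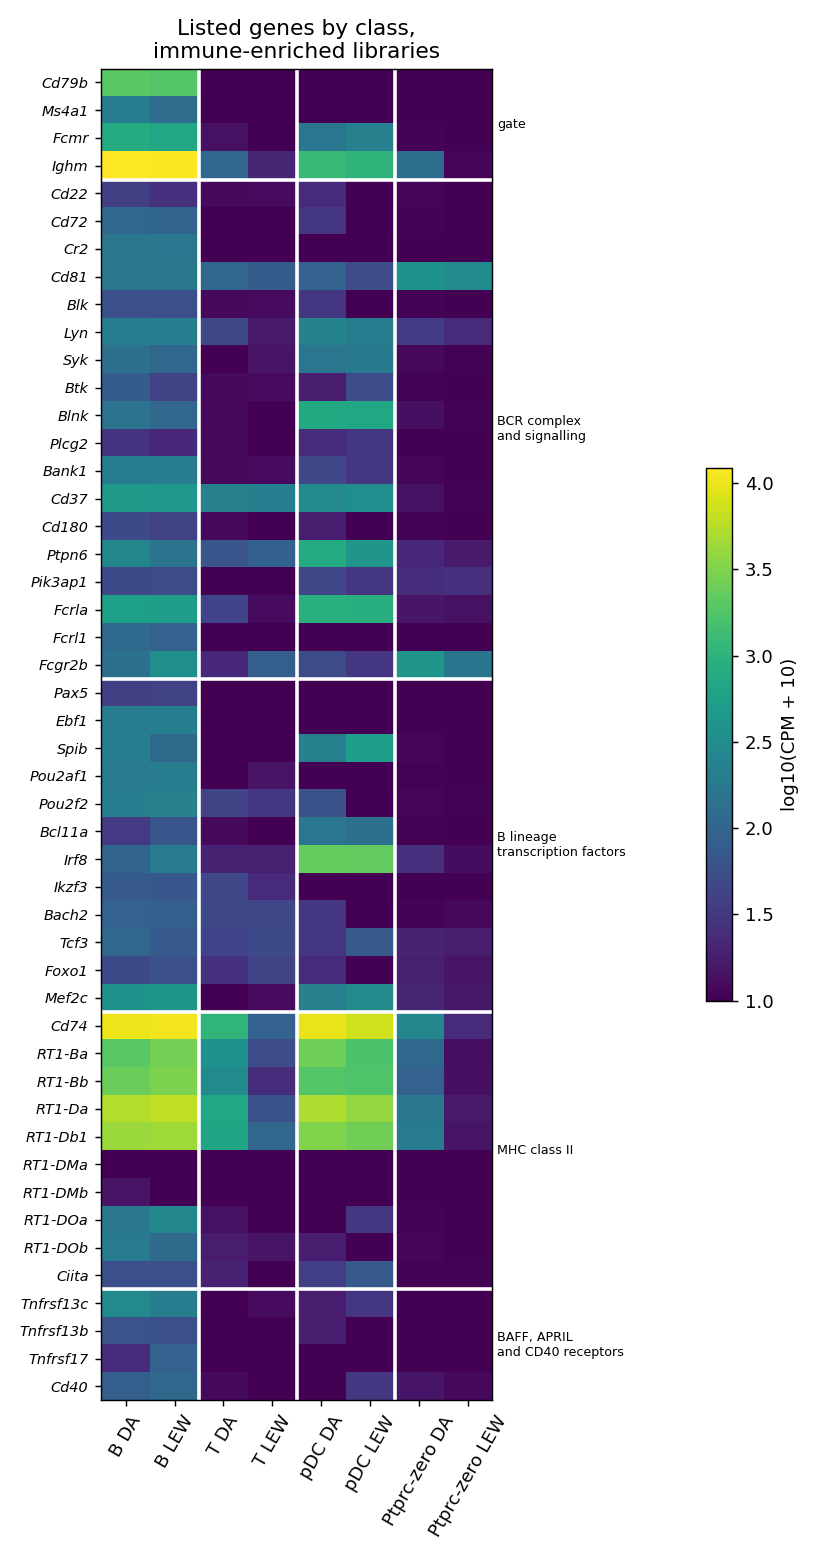
Levels, as log10 of CPM plus 10, of the gate genes and of genes of 4 lists (rows) in B cells, T cells, pDCs and Ptprc-zero cells (columns) of the DA and LEW immune-enriched libraries. Cd79b, Cr2 and Ebf1 are at the floor in T cells and pDCs, while Blnk and Irf8 are brightest in pDCs and the main class II genes are alike in B cells and pDCs.

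Beside the lists, the 10 leading genes of each contrast were taken by the lower of the 2 log2 ratios, among genes counted in 20% or more of the B cells of both libraries. Against T cells these were AABR07060872.1, AABR07034739.1, Cd79b, Ighm, Fcmr, Mef2c, Cyb561a3, Ebf1, Pxdc1 and Tnfrsf13c. Against pDCs they were Cd79b, Pxdc1, Lax1, Ebf1, Pou2af1, Fcer2, AABR07034739.3, Cr2, AABR07018078.1 and Dus2. Against Ptprc-zero cells, where 1307 of 12017 genes (10.9%) were higher and 1036 (8.62%) lower, they were Cd79b, AABR07060872.1, AABR07034739.1, Ighm, Fcmr, Ptprc, Coro1a, Cd74, Ptprcap and Fcrla.

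Several of these have no gene symbol in the files and are given by their clone names. AABR07060872.1 was counted in 107 of the 114 immune-enriched members, with a median of 23 UMIs per member in DA and 21 in LEW. It was also counted in 26 of 28 pDCs, but in 10 of 199 T cells and 91 of 2852 Ptprc-zero cells. AABR07034739.1 was counted in 50 of 65 DA and 46 of 49 LEW members. Both were present in 91 of the 114 B cells, in 11 of the 28 pDCs and in 0 of the 199 T cells. What these genes encode is not stated in the files.

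The state of the B cells was read from gene lists for naive or resting, switched, germinal centre and plasma cells. Heavy chain switching could not be read. Of the 8 switched heavy chain genes listed, Ighg1 alone is in the gene list, and it is listed at 0 in every kept cell. Ighd, which with Ighm marks naive cells, and the 4 light chain genes are not in the gene list either. The presence of Ighm in all 114 immune-enriched members followed from the choice of cells in large part and is no evidence on switching.

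Fcer2, the low-affinity IgE receptor CD23 of mature follicular B cells, was counted in 25 of 65 DA and 19 of 49 LEW members, at 155 and 166 CPM. Cr2, which is carried by follicular and marginal zone B cells, was counted in 22 and 19. Together, 65 of the 114 members (57.0%, interval 47.4% to 66.3%) held a UMI of either gene, of which 20 held both, 24 Fcer2 alone and 21 Cr2 alone. The same reading gave 0 of 199 T cells, 0 of 28 pDCs and 1 of 2852 Ptprc-zero cells. The DA share was 53.8% and the LEW share 61.2%, and their intervals overlapped.

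Other naive or resting genes were also counted in T cells. Bach2, a repressor of plasma cell fate, was at 84.4 CPM in DA and 77.0 CPM in LEW B cells and at 37.3 and 35.1 CPM in T cells. Ccr7 had no UMI in any B cell, but only 7 in all kept cells, 6 of them in T cells. Cxcr5 had 1 UMI in the B cells of each immune-enriched library. The rule for a naive or resting cell, at least 1 UMI of that list without a switched or plasma call, was met by 94 of the 114 members (82.5%, 74.2% to 88.9%), but also by 83.9% of T cells and 75.0% of pDCs, so it was not specific to B cells.

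With every cell thinned to 1000 UMIs, 29 of the 114 members (25.4%) still held Fcer2 or Cr2, and the naive or resting rule fell to 44.7% of B cells, 39.2% of T cells and 14.3% of pDCs. No cell of these classes was shallower than that number. In the stricter gate, with at least 5 UMIs of at least 3 gate genes, 60.6% of members held Fcer2 or Cr2. In the TLH libraries Fcer2 was counted in 1 of 62 members and Cr2 in 6.

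Of the 15 activation, germinal centre and memory genes, 6 had no UMI in the immune-enriched B cells, beside 22946 of all 32883 genes. Against T cells, 3 of the 7 that could be compared were higher in B cells and 1 lower, with a median log2 ratio of 0.54. Against pDCs, 5 of 6 were higher and 0 lower, with a median of 2.06. Cd27, a memory marker in human B cells, had no UMI in B cells and 198 and 187 CPM in T cells. Mki67 and Top2a, which mark dividing cells, had no UMI in the 114 immune-enriched members, which allows a share of up to 2.63% of cells with a UMI at this depth, and were counted in 6 of 199 T cells. In the TLH libraries 1 of the 14 LEW-2 members held them (2 UMIs of Mki67 and 1 of Top2a). That member also met the plasma rule given below, with 197 Ighm and 29 Mzb1 UMIs. Cd69, an early activation antigen, was counted in 10 of 65 DA and 15 of 49 LEW members, and Cd83, another, in 17 and 10.

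Of the 8 genes of immature or precursor B cells, 5 had no UMI in the immune-enriched B cells, a share near that over all genes (22946 of 32883). Cd24 was counted in 7 DA and 5 LEW members, at 89.1 and 47.4 CPM. Of the 8 marginal zone or B1 genes, Cd9, Cd5 and S1pr3 had no UMI in these members, beside 22946 of all 32883 genes. Cd5 had only 4 UMIs in all kept cells, 2 of them in T cells, so its absence from B cells says little. Notch2, the receptor that marginal zone cells need, was counted in 10 and 6 members. Of the 14 homing genes, 11 could be compared with T cells, of which 2 were higher in B cells and 0 lower, with a median log2 ratio of -0.21. The 2 were Cxcr4 and Ccr6. Cxcr4, the receptor for Cxcl12, was counted in 36 DA and 23 LEW members, at 230 and 225 CPM against 80.5 and 90.0 CPM in T cells. Itgal, an integrin alpha chain of leukocytes, had 1 UMI in each library.

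Ccr6, the receptor for Ccl20, was counted in 0 of 4 members of DA-1, 0 of 19 of DA-2, 6 of 25 of LEW-1 and 2 of 14 of LEW-2. It was counted in 15 of 65 DA and 25 of 49 LEW members of the immune-enriched libraries. Each LEW library thus lay above the DA libraries of its preparation. The gene missed the filter on low counts. Without that filter the strain difference was a log2 of 1.95 with an adjusted p of 0.993 (edgeR quasi-likelihood test), so it did not pass, and the gene is named here after its values were seen.

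Plasma cells were sought by a rule of at least 3 UMIs of at least 2 of Jchain, Mzb1, Prdm1, Sdc1, Tnfrsf17 and Derl3. In the B gate 5 of the 176 members met it, 1 in the DA immune-enriched, 2 in the LEW immune-enriched and 2 in the LEW-2 library. Among the 114 immune-enriched members the share was 2.63% (interval 0.546% to 7.50%), 1.75% when thinned to 1000 UMIs and 1.01% in the stricter gate. A LEW immune-enriched member that met the rule held 1 Jchain and 2 Mzb1 UMIs, beside 13 of Cd79b, 6 of Fcmr and 100 of Cd74. Ighm made up 0.616% of its UMIs. By contrast, a DA-1 member with 71 Ighm and 4 Jchain UMIs and a LEW-1 member with 219 and 7 did not meet the rule. Jchain, which joins IgM and IgA into polymers, was counted in 2 DA and 2 LEW immune-enriched members, whereas Mzb1, a chaperone of the secretory pathway, was counted in 16 and 10. Derl3 is listed at 0 in every kept cell and Xbp1, the factor of the secretory programme, had no UMI in the immune-enriched members. In or outside the gate, 16 cells met the rule with 40 or more Ighm UMIs. Xbp1 was counted in only 2 of these, so its absence from the members says little.

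The cell with the highest Ighm sum was in the DA immune-enriched library. It held 1762 Ighm UMIs, 7569 UMIs of AABR07060872.1 and 23 of Jchain among 12483 UMIs in all, and no Cd79b or Fcmr. In the LEW immune-enriched library the corresponding cell held 1472 Ighm UMIs, 4723 of AABR07060872.1 and 14 of Tnfrsf17 among 11960. Ighm and 3 unnamed genes (AABR07060872.1, AABR07034739.1 and AABR07034739.3) made up 75.2% of the first cell and 52.2% of the second. The DA cell also held 721 Hba-a2 UMIs, a globin transcript of red cells.

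These cells carried much of the library sums. The DA cell alone held 67.7% and the LEW cell 74.1% of all Ighm UMIs of their members. Without the members that passed the plasma rule, Ighm fell from 12201 to 4184 CPM in DA and from 11764 to 3143 CPM in LEW, and AABR07060872.1 from 43515 to 8522 CPM and from 33646 to 6058 CPM. The median member held 10 Ighm UMIs in both. In the LEW-2 library, 2 members with 591 and 197 UMIs brought Ighm to 20246 CPM, against 1255 CPM without them. The TLH sum of DA-1 rested on a member with 71 of 77 UMIs and that of LEW-1 on a member with 219 of 273.

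Most cells that met the plasma rule lay outside the B gate, where the rule was run on cells with no CD3 and no Siglech UMI. Of 27 kept cells that met the rule, 16 held 43 to 1762 Ighm UMIs and 11 held none. Of the 16, 11 were no members, because none of the 11 held a UMI of Cd79b, Ms4a1 or Fcmr. They were 6 cells of DA-1, 2 of DA-2, 1 of LEW-1, 1 of LEW-2 and 1 of the DA immune-enriched library. Ighm took a median of 6.62% of their UMIs, and Ighm with the 3 unnamed genes a median of 35.1%, from 9.45% to 46.2%. The gate, which asks for UMIs of at least 2 of its genes, thus held 5 of these 16 cells.

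The other 11 rule cells held no Ighm and no Cd79b. They held 10288 to 66189 UMIs each, with a median of 1486 Alb UMIs (24 to 3851). Sdc1, which hepatocytes also express, was counted in all 11. Ptprc was counted in only 1, of the LEW immune-enriched library, which held 8 Ptprc, 21 Cd74 and 24 Alb UMIs. Across all kept cells, 23 had at least 40 Ighm UMIs, 9 in the gate and 14 outside, and held 64.0% to 90.2% of the Ighm UMIs of their libraries. None of the 23 held a CD3 or Siglech UMI.

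**Figure D4:**
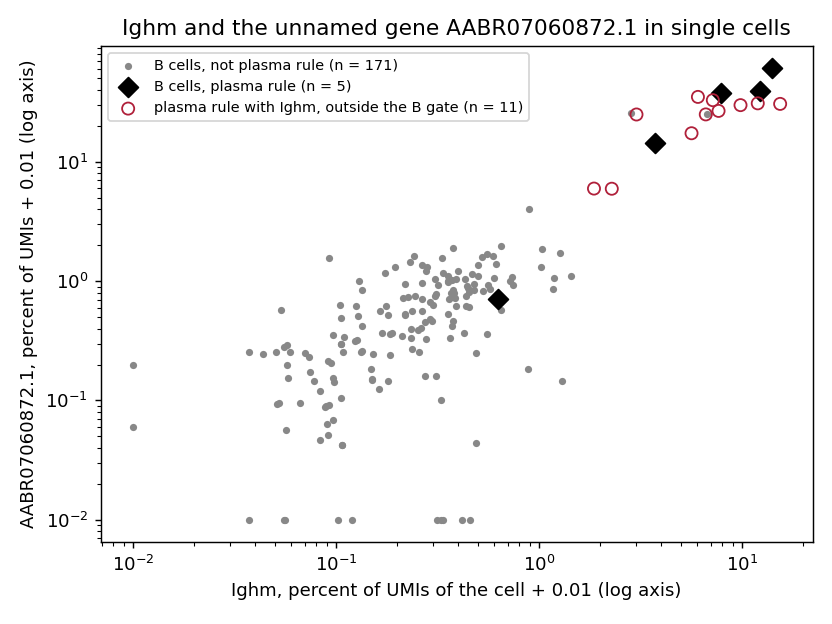
Share of each cell's UMIs from Ighm (horizontal) and from the unnamed gene AABR07060872.1 (vertical), in percent plus 0.01 on log axes, for 171 B cells outside the plasma rule, 5 B cells that passed it and 11 further cells that passed it with Ighm but lay outside the B gate. The cells of the plasma rule lie at the upper right apart from 1 member with 0.616% Ighm, and 2 grey members lie among them.

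Strain was not used to pick the cells, so the strains could be tested. UMIs were summed over the B cells of each library, and DA-1, with 4 B cells, was left out. Of 988 genes that passed the filter on low counts, 0 (0.0%) differed between LEW and DA in edgeR's quasi-likelihood test with preparation as a term, and 21 had an unadjusted p under 0.05. DESeq2, run on 10808 genes without that filter, also called 0, with 20 at an unadjusted p under 0.05. The libraries tested held 14 to 65 B cells and 40650 to 213262 B cell UMIs each.

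Apart from the gate genes, the list genes tested numbered 36, and 0 passed in either direction. The lowest adjusted p, 0.643, was shared by Mt-co3, RGD1307603 and AY172581.9. Mt-co3, a mitochondrial gene, had a log2 difference of -0.85 (LEW over DA, SE 0.15). It stood at 11674 CPM in DA-2, 6480 in LEW-1, 6052 in LEW-2, 39421 in the DA and 25987 in the LEW immune-enriched B cells. The LEW value was the lower in each preparation, as was the mitochondrial share in the immune-enriched members. RT1-A1, a class I gene, was higher in LEW by a log2 of 1.96 (SE 0.48, adjusted p = 0.996 in edgeR), at 59.2 CPM in DA-2 and 298, 369, 98.5 and 361 CPM in LEW-1, LEW-2, DA and LEW immune-enriched. The groups did not overlap within a preparation for either gene. With a lone DA library in each preparation of this fit, that says little, and neither gene passed.

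The count of 0 did not hold in all settings. Without the DA-2 library, which leaves a lone DA library, 85 genes passed, 80 of them higher in LEW, and 6 passed without the DA and 7 without the LEW immune-enriched library. With no filter on low counts, 9 of 10808 genes passed, among them Mt-co3 (log2 of -0.84, adjusted p = 0.000181) and AY172581.9 (-1.30, adjusted p = 0.000339), both lower in LEW. For the globin gene Hba-a2 and for LOC689064, 721 of 727 DA immune-enriched UMIs (summed over 2 entries) and 921 of 931 came from the member with the highest Ighm sum. Ugt2b, a hepatocyte enzyme gene, stood at 237 CPM in DA-2, 1698 in LEW-1, 738 in LEW-2, 18.8 in the DA and 551 in the LEW immune-enriched B cells, higher in LEW in each preparation. The hepatocyte list was higher in LEW in the immune-enriched B cells (15644 against 1304 CPM) whereas the strains overlapped in the TLH ones (60173 in DA-1, 74499 in DA-2, 71788 in LEW-1 and 51710 in LEW-2). The part of that RNA in the strain values was not tested. The remaining genes were LOC100360791, with 0, 4, 4, 1 and 55 UMIs in DA-2, LEW-1, LEW-2, DA and LEW immune-enriched B cells, Ccl6 and Ubd. Of the 36 Ccl6 UMIs in LEW-2, 32 lay in 1 member. Ubd had 19 UMIs in 12 of the 19 DA-2 members and none in the other libraries tested.

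The strain difference in B cells was also compared with that in T cells of the same libraries. Of 1282 genes tested, 11 (0.858%) had a strain difference that differed between the cell types (edgeR's interaction term), 9 more LEW-sided and 2 more DA-sided in B cells. This fit, like the one against Ptprc-zero cells below, had no term for preparation by cell type. With DA-1 left out, the strains were not balanced over the preparations. An effect of preparation on the difference between cell types was therefore not separated from the interaction. In B cells, RT1-Da stood at 1124 CPM in DA-2, 924 in LEW-1, 1353 in LEW-2, 5406 in DA and 6255 in LEW immune-enriched, so that the strains overlapped. In T cells it stood at 89.0, 0, 28.8, 699 and 48.3 CPM. The interaction was a log2 of 3.78 (SE 0.51, adjusted p = 2.04e-09). The interaction also passed for Cd74 (2.79), RT1-Bb (3.87), RT1-Ba (2.77) and RT1-Db1 (2.33). In B cells the strains overlapped for Cd74 and RT1-Bb in the TLH libraries. In the libraries tested, RT1-Ba and RT1-Db1 were higher in LEW B cells in each preparation, by a fitted log2 of 0.23 and 0.07 that did not pass (adjusted p = 0.996 for both in edgeR). DA-1, left out of the fit, held 8 RT1-Db1 UMIs among 9589 in its 4 B cells, and with it the strains overlap for that gene. In the TLH T cells RT1-Ba and RT1-Db1 had no UMI in DA-2, which held 8 T cells with 22464 UMIs. In LEW-2, with 26 T cells, they had 4 and 6 UMIs (57.6 and 86.4 CPM). A strain difference in T cells cannot be read from such counts.

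Of 356 RT1-Da UMIs in the 109 DA immune-enriched T cells, 353 lay in 2 cells, whereas the 2 highest B cells of that library held 8.33% of its RT1-Da UMIs. There, 4 T cells held 3 or more UMIs of myeloid genes. With such cells left out of the T gate in every library, an alternative chosen after the data were seen, 3 genes passed in place of 11. The class II differences then turned, to -1.70 for RT1-Da, -2.22 for Cd74, -2.56 for RT1-Bb, -2.91 for RT1-Ba and -3.25 for RT1-Db1, of which RT1-Db1 passed. The LEW immune-enriched T cells were also uneven, with 22 of 22 RT1-Da, 35 of 38 Cd74 and 41 of 43 RT1-Db1 UMIs in 2 cells each and all 7 RT1-Bb UMIs in 1 cell. Of these UMIs, only 4 of Cd74 lay in cells that were left out. Without the DA immune-enriched library 0 genes passed.

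**Figure D5:**
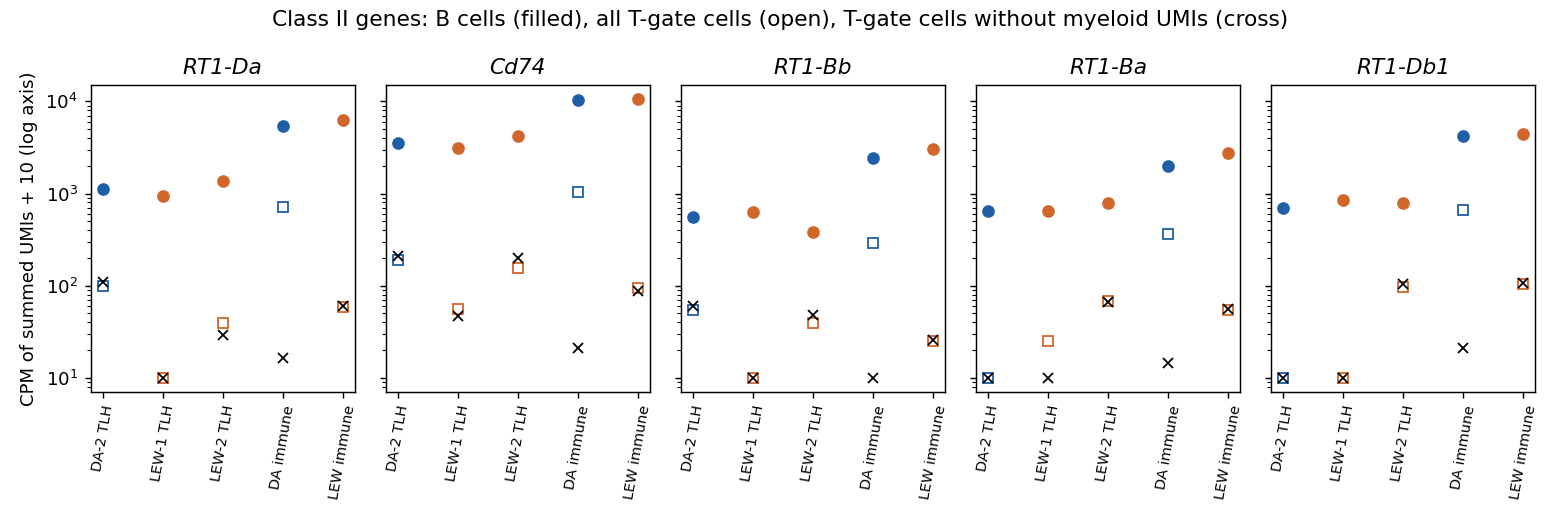
CPM plus 10 (log axis) of 5 class II genes in B cells (filled), all T-gate cells (open) and T-gate cells without 3 or more myeloid UMIs (cross) of the 5 tested libraries (blue DA, orange LEW). The DA immune-enriched T cells fall, for RT1-Da from 699 CPM to 6.50 CPM, when 4 cells are left out.

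Against the Ptprc-zero cells of the same libraries, the strain difference in B cells differed for 0 of 9907 genes (0.0%) in edgeR's interaction test, with 158 at an unadjusted p under 0.05. None of the alternatives run for this contrast called a gene. Beside the hepatocyte transcripts, markers of other cell types were counted in some members. Of the 176 members, 13 held at least 3 UMIs of at least 2 genes of the Kupffer cell, other myeloid or endothelial lists, and 6 held over 3 times the median UMIs of their library. In the LEW-2 library the Kupffer cell list reached 2657 CPM in B cells and 2537 CPM in Ptprc-zero cells, against 29.6 to 328 CPM in B cells of the other libraries. Of the 14 LEW-2 members, 11 held a UMI of that list and 2 held at least 3 UMIs of at least 2 of its genes. For C1qa of that list, 25 of 30 UMIs lay in 1 member, and its level fell from 738 to 179 CPM without the members that passed the plasma rule. In the LEW immune-enriched library the endothelial list reached 687 CPM in B cells, with UMIs in 4 members, and 354 CPM in Ptprc-zero cells. The list of other myeloid genes reached 195 and 124 CPM there, with UMIs in 7 members. Over the other libraries these lists stood at 49.2 to 434 CPM and 59.6 to 369 CPM in B cells. No doublet caller was run, and the part of such members in the values was not tested.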

How the data were processed

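Single-cell RNA was measured with 10x Genomics droplets in 4 TLH and 2 immune-enriched libraries. The authors aligned reads with Cell Ranger 3.1.0 to a custom rat reference and deposited UMI counts per gene and barcode, without normalization. Gene names for the 32883 rows were taken from the gene list of the nuclei. Members, T cells and pDCs were picked by the limits given above. The members and gene lists were chosen with earlier results of these data known. Named genes are those of the lists and the 10 leading genes of each contrast. Other genes named in the strain comparisons were chosen after their values were seen. Of 188 listed genes, 172 were in the gene list. Some listed genes count in the list totals but are not reported here by name.

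UMIs were summed per library and class, and strains were tested with edgeR 4.0.16 (R 4.3.3: TMM, filterByExpr, quasi-likelihood, Benjamini-Hochberg, call at 0.05) on libraries with at least 10 B cells, as the design required. DESeq2 1.42.0 was an alternative. The tests were checked on simulated counts. Each library is 1 rat. Alternatives were other size factors, no filter, a replicate block, a stricter gate (at least 5 UMIs of 3 genes), a gate without Ighm (at least 2 UMIs), the study's cell limits, thinning, and leaving out each library. Clusters were not built. Nuclei are described at the end (at least 1000 UMIs, at most 10% mitochondrial). The 2 Visium tissue sections were not used.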

Additional observations from a re-analysis of the deposited data

Results flagged for a closer look

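The strain difference differed between B and T cells by an interaction term for 11 genes (edgeR's quasi-likelihood test, adjusted p from 2.04e-09 to 0.0371). As log2 of LEW over DA in B cells minus the same in T cells, the values were 3.78 for RT1-Da, 2.79 for Cd74, 3.87 for RT1-Bb, 2.77 for RT1-Ba and 2.33 for RT1-Db1, all of the class II pathway. They were 4.70 for C1qa, a complement gene of macrophages, 3.61 for Gngt2, 1.78 for Ifi27, 1.95 for Ifitm3, -3.30 for S100a4 and -1.95 for Vim. C1qa had 30 UMIs in B cells of LEW-2, of which 25 lay in 1 member, and 76 in DA immune-enriched T cells. S100a4 had no UMI in B cells of the 3 TLH libraries tested and 11 and 10 UMIs in the immune-enriched B cells, against 205 in LEW immune-enriched T cells. Of the 11, S100a4 (-4.15), Ifi27 (1.92) and RT1-Db1 (-3.25, with its sign turned) passed without the T cells that held 3 or more myeloid UMIs.

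The nuclei libraries, which no comparison used, held nuclei that met the B cell gate, and LEW-2, with 4, was singled out for having more than 3. Its exact interval (0.0436% to 0.409%) overlaps those of the other nuclei libraries. The 4 libraries held 0, 2, 3 and 4 such nuclei among 2205, 2557, 5262 and 2501 (DA-1, DA-2, LEW-1 and LEW-2), or 9 of 12525 (0.0719%, exact interval 0.0329% to 0.136%). Of the 9, 7 held a Ptprc UMI, 8 a Cd74 UMI and 8 a UMI of AABR07060872.1.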

How the results depend on the processing

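The count of 0 strain genes was 0 with DESeq2's size factors, DESeq2, the replicate block, the study's cell limits, all 6 libraries and without plasma-rule members, 9 with no filter on low counts (10808 tested) and 0 to 85 when a library was left out (85 without DA-2, 6 without the DA and 7 without the LEW immune-enriched one). TLH libraries share only a replicate number (correlation of deviations 0.0253 over 988 genes), and the replicate block called 0 of 1347 genes. A library left alone in its arm is assumed to vary like the others. The stricter gate left too few libraries with 10 B cells for this fit and gave no value. Genes whose strain difference differed between B and T cells numbered 11, and 4 with DESeq2's size factors, 3 without T cells that held 3 or more myeloid UMIs, 4 without plasma-rule members and 0 to 20 when a library was left out (0 without the DA immune-enriched one, 20 without DA-2). The last 2 choices of cells were made after the data were seen. Without the myeloid T cells RT1-Da (-1.70), Cd74 (-2.22), RT1-Bb (-2.56), RT1-Ba (-2.91) and RT1-Db1 (-3.25) changed sign. Over libraries left out, S100a4 ranged from -7.53 to 1.13, RT1-Ba from -3.39 to 3.15 and RT1-Db1 from -3.80 to 2.76, each sign change being without the DA immune-enriched library. Against Ptprc-zero cells the count was 0 throughout. The log2 strain difference in B cell share was 0.26, -0.18 with the study's cell limits, 0.15 with them for DA only (an alternative added after the data were seen), 0.17 with the stricter gate, 0.16 without Ighm in the gate and 0.150 to 1.20 with a library left out. The 176 B cells became 112 under the stricter gate and 111 to 172 with a library left out. The stricter gate kept 1, 4, 5 and 3 of them in DA-1, DA-2, LEW-1 and LEW-2. It kept 56 in the DA and 43 in the LEW immune-enriched library, so most of its losses were TLH members. Thinned to 1000 UMIs, the naive or resting share was 44.7% and the Fcer2 or Cr2 share 25.4%. The cause of these changes was not tested. Depth limits the reading of genes with few UMIs per cell.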

Other observations

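Outside the gate, a kept cell of the LEW immune-enriched library held transcripts of B cell precursors. It had 12 UMIs of Igll1, a surrogate light chain gene, 10 of Dntt, the polymerase that adds bases at antigen receptor joints, 2 of Rag1 and 1 each of Rag2 and Vpreb1, with 13 of Ighm, 5 of Cd79b and 7 of Cd24. It had no UMI of Cd74 or RT1-Da among 8502 UMIs, and 3 of Cd3g, which kept it out of the gate. It was the only kept cell of the 6 libraries with an Igll1 UMI, and it was singled out after its values were seen.

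Another kept cell outside the gate, in the DA-2 library, held 20 of the 26 UMIs of Igh-6 found in all kept cells. It had 59 UMIs of AABR07060872.1, 19 of Cd74 and 8 of RT1-Da, and none of Ighm or Cd79b, among 3459 UMIs. What Igh-6 encodes here is not stated in the files.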
